A study of Arabidopsis thaliana with 12 samples.

Results

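Alternative splicing of the SR and SR-like splicing regulators was followed in *Arabidopsis thaliana* Col-0 plants transferred to a higher growth temperature. The set was taken by locus and comprised 10 genes: *SCL30A* (AT3G13570), *SCL33* (AT1G55310), *SR30* (AT1G09140), *SR34* (AT1G02840), *RS31* (AT3G61860), *RS40* (AT4G25500), *RS2Z32* (AT3G53500), *RS2Z33* (AT2G37340), *SR45* (AT1G16610) and *SR45a* (AT1G07350). These genes carried 14 of the 638 splicing events, and made up 10 of the 511 genes, in the deposited table of temperature-responsive events. All groups were unmutated Col-0 grown for 5 weeks at 16 °C under 8 h of light and 16 h of darkness. The control group (16C-16C 1 day) remained at 16 °C and was collected on day 1, whereas the other groups were placed at 25 °C and collected after 1, 3 and 5 days. Each group had 3 samples, 12 in all, and each sample pooled about 10 plants. According to the labels the tissue was shoot apical meristem (SAM) and leaves of early stages. The authors' methods describe tissue enriched in SAM by taking off leaves. The table holds no expression values, so the tissue could not be checked against marker genes.

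SR proteins combine RNA recognition motifs with a domain rich in arginine and serine. They bind exonic sequences of a pre-mRNA and help to recruit the U1 and U2 small nuclear ribonucleoproteins to neighbouring splice sites, so their dose influences which sites are used. The pre-mRNAs of plant SR genes are themselves extensively spliced in alternative ways, often within a long intron, and many of the resulting isoforms carry an early stop codon and are degraded or kept in the nucleus. In Arabidopsis the SR subfamily is related to human SRSF1, whereas the SCL (SC35-like), RS and RS2Z subfamilies have structures typical of plants. *SR45* and *SR45a* are called SR-like because arginine/serine-rich stretches lie on both sides of their RNA recognition motif.

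For each event the table gives a single percentage spliced in (PSI, written as a fraction from 0 to 1) per group, which is the share of transcripts with the isoform taken as reference. For a retained intron (RI) and a skipped exon (SE), PSI is read here in its usual sense, as the share of transcripts that keep the intron or carry the exon. For alternative 3′ sites (A3) and alternative 5′ sites (A5), the sources used here do not name the competing isoform that serves as reference. The number of reads behind a PSI is unknown beyond a minimum set by the authors. No value per sample was used, so no SD, interval or test accompanies the values below. A difference between 2 rounded values is uncertain by 0.01 from rounding alone. The table lists only events that were called different between temperatures, and the existence of some difference is therefore not a result. The warm groups share the single 16 °C group, and the only cool plants were collected on day 1, so that temperature and age cannot be told apart on days 3 and 5. A shift of PSI within the same cells and a changed mixture of cells in the tissue cannot be told apart either.

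Across the 14 events the 3 warm groups lay on the same side of the shared 16 °C value in every case, as they did in 623 of all 638 events. The mean PSI at 25 °C was higher than at 16 °C in 11 events and lower in 3, namely those of *RS31*, *RS2Z32* and the skipped exon of *RS40*. Over the whole table, 323 events were higher and 315 lower. On day 1, 8 member events were higher by at least 0.1, against 29.9% of all listed events, and 2 were lower by at least 0.1, against 30.9%. On day 3 the member counts were 7 (background 32.1%) and 2 (27.7%), and on day 5 they were 6 (27.7%) and 2 (28.7%). As a percentage of the 14 events, the higher ones amounted to 57.1%, 50% and 42.9% on the 3 days, and the lower ones to 14.3% on each. The median absolute mean difference was 0.132 for the member events and 0.113 for all events, and 0.127 and 0.123 where the PSI at 16 °C was 0.1 to 0.9. With 4 of the events in skipped exons, 7 in alternative 3′ sites, 2 in alternative 5′ sites and 1 in a retained intron, the signs do not describe a single kind of change.

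**Figure D1:**
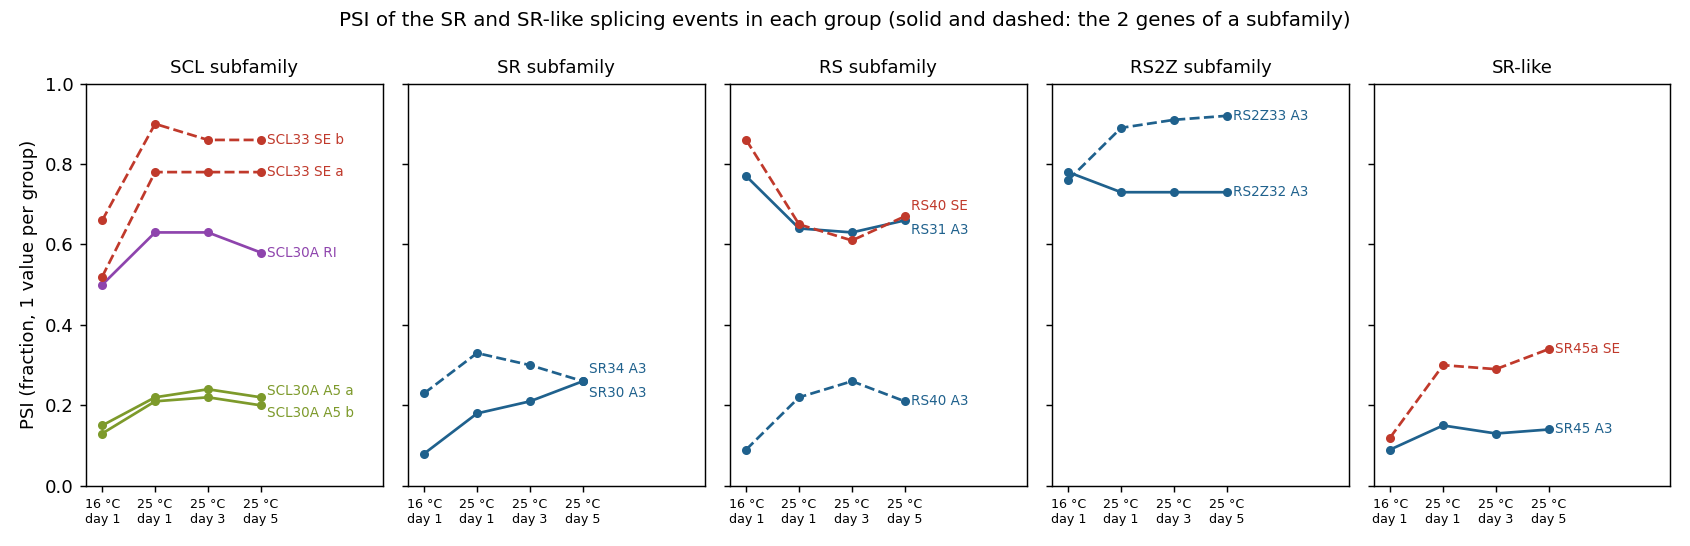
PSI (vertical axis, fraction) of the 14 events in the 4 groups (horizontal axis), 1 panel per subfamily. Each point is the authors' value for a group, lines join the points of 1 event, and a and b distinguish events of the same gene and type. The SCL and SR-like events are higher at 25 °C, *RS40* SE and *RS31* A3 are lower, and the *RS2Z32* and *RS2Z33* lines separate from 0.78 and 0.76.

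The *SCL* genes held the largest difference of the set. *SCL33* (chromosome 1, 20629698 to 20633007, forward strand) encodes an SC35-like protein with a charged extension ahead of its RNA recognition motif. Its first skipped exon event (a) had PSI of 0.52 at 16 °C and 0.78 on every warm day. The second (b) had 0.66 at 16 °C and 0.90, 0.86 and 0.86 at 25 °C. PSI was thus higher in all warm groups, by 0.26 in event a and by 0.20 to 0.24 in event b. By size of the mean difference, event a ranked 37 among the 638 events and 8 among the 65 skipped exon events of the table. The 2 events share a gene, may concern the same exon and are not independent.

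The reference annotation (RefSeq, TAIR10.1) lists 7 transcripts of *SCL33* and a single exon that is skipped as a whole. This exon has 36 bases, lies at chr1:20631687-20631722 inside an intron of 765 bases, the longest of the gene, and is coding throughout, without shifting the frame. Its sequence is printed because it is the only annotated candidate for the *SCL33* skipped exon events. The position of an event inside its gene is not in the table, so the match is not established, and 2 events cannot both be this exon with the same neighbours. In the windows around its ends, capitals mark the last 2 bases of the intron before it and the first 2 of the intron after it.
SCL33 exon, chr1:20631687-20631722, forward strand: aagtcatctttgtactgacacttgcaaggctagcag
SCL33 exon start, chr1:20631667-20631696: agatgaatcaagtcttcaAGaagtcatctt
SCL33 exon end, chr1:20631713-20631742: aggctagcagGCaagtgcttgcttttttca

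The intron after the exon begins with GC and not with GT. Of the last 20 intron bases before the exon 5 were T, which is the 5th percentile of 126948 annotated 3′ splice sites, whose median was 9.

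*SCL30A* (chromosome 3, 4429256 to 4432159, reverse strand), the SC35-like relative of *SCL33*, had 3 events. Intron retention stood at 0.50 at 16 °C and at 0.63, 0.63 and 0.58 on the warm days. It was higher in all warm groups, with the smallest difference (0.08) on day 5. An alternative 5′ site (a) had PSI of 0.15 at 16 °C and 0.22, 0.24 and 0.22 at 25 °C, and another (b) had 0.13 and then 0.21, 0.22 and 0.20. Both were higher by 0.07 to 0.09 and moved almost in parallel, and whether they share reads is not known. RefSeq has a single transcript of *SCL30A*, so at most 1 isoform of each event can be annotated there, and no alternative is. The authors extended the TAIR10 annotation with transcripts assembled from the reads, and the source of the other isoforms is not stated.

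The SR subfamily genes both had an alternative 3′ site with higher PSI in the warm groups, but with different courses. *SR30* (chromosome 1, 2942538 to 2945976, reverse strand) encodes a protein that is known to alter the splicing of its own pre-mRNA. Its PSI was 0.08 at 16 °C, 0.18 on day 1, 0.21 on day 3 and 0.26 on day 5. The difference from 16 °C was thus 0.10 on day 1 and 0.18 on day 5, the largest gain between these days in the set. *SR34* (chromosome 1, 626639 to 629993, forward strand), a close relative of *SR30* and a counterpart of human SRSF1, started at 0.23 and had 0.33, 0.30 and 0.26. Its difference was 0.10 on day 1 and 0.03 on day 5, or 0.30 of the day 1 difference. On day 5 both genes had a PSI of 0.26, against a gap of 0.15 at 16 °C and on day 1. With the reference isoforms unknown, equal values do not show equal use of corresponding sites. Whether the courses differ beyond the spread of samples was not tested, as no value per sample was used.

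For *SR30* the annotation has 1 alternative 3′ site, in the longest intron of the gene (942 bases). Use of the upstream acceptor adds 338 bases (chr1:2943227-2943564), of which 37 are annotated as coding, stop codon included, giving a protein of 256 amino acids, and use of the downstream acceptor gives 268. *SR34* has an arrangement of the same kind: the longest intron (818 bases) ends at any of 3 acceptors, which add 511 bases, 353 bases or none, with proteins of 272, 285 and 303 amino acids. Another annotated pair of *SR34* acceptors lies 4 bases apart outside the coding sequence, so the measured event could not be placed. The acceptors are shown to compare the 2 genes, with the AG of each in capitals after 18 further intron bases and before 10 exon bases.
SR30 upstream acceptor, chr1:2943555-2943584, reverse strand: ttgcgttgtttgttttctAGatctggctca
SR30 downstream acceptor, chr1:2943217-2943246, reverse strand: ggtttttggtcttgctgcAGgtcccaatca
SR34 upstream acceptor, chr1:628757-628786, forward strand: aaaatggttttgtttcatAGatatggattt
SR34 middle acceptor, chr1:628915-628944, forward strand: ctaatttacattgctgctAGatggataaca
SR34 downstream acceptor, chr1:629268-629297, forward strand: cttttcttggacttttgcAGatcgcgttca

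The upstream *SR30* acceptor had 12 T among the last 20 intron bases and the downstream one 9. The *SR34* acceptors had 9, 8 and 10.

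Of the 3 events in the RS subfamily, 2 had lower and 1 had higher PSI in the warm groups. RS proteins carry a pair of RNA recognition motifs followed by the arginine/serine-rich domain. The skipped exon of *RS40* (chromosome 4, 13024498 to 13027484, forward strand) had a PSI of 0.86 in the cool, which compares with 0.65, 0.61 and 0.67 after 1, 3 and 5 warm days. If PSI has its usual sense here, skipping was found in 0.14 of transcripts at 16 °C and in 0.33 to 0.39 at 25 °C. The authors describe a mutually exclusive exon event in *RS40*, whereas this event is labelled as a skipped exon. Whether the same event is meant is not known, and the skipped share depends on it. Its alternative 3′ site went from 0.09 to 0.22, 0.26 and 0.21. Both *RS40* events were furthest from 16 °C on day 3, by 0.25 and 0.17. They carry consecutive numbers at the same assembled locus, and an annotated candidate for each uses the same acceptor (below). The 2 events may therefore not be independent. *RS31* (chromosome 3, 22900050 to 22902395, reverse strand) had an alternative 3′ site with 0.77 at 16 °C and 0.64, 0.63 and 0.66 at 25 °C, lower by 0.11 to 0.14. The A3 events of *RS40* and *RS31* thus differed in sign, but with the reference isoform unknown this does not show opposite use of corresponding sites.

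In RefSeq *RS40* has 8 transcripts and 2 exons that are skipped as a whole. The first has 67 bases, is not coding and lies upstream of the coding sequence. The second has 257 bases (chr4:13025600-13025856), lies in the longest intron of the gene (782 bases), is not a multiple of 3 and is annotated as coding for only 7 bases. These 7 bases are the start of the coding sequence annotated for the transcript with this exon. Where the exon is skipped, the annotated start lies in an earlier exon. The transcript with the exon has an annotated protein of 317 amino acids, against 350 where it is skipped. The table does not say which exon was measured. The ends of the longer exon are shown because its inclusion changes the annotated protein.
RS40 exon start, chr4:13025580-13025609: ccgcattttctttgacgcAGgatgtgtttg
RS40 exon end, chr4:13025847-13025876: ataatgcaagGTctgtaactgcttcactgg

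*RS40* overlaps a gene on the other strand (AT4G25510) by 42 bases. No alternative 3′ site of *RS40* is annotated, and *RS31* has 1 annotated transcript.

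The RS2Z genes encode proteins with a pair of zinc knuckles between the RNA recognition motif and the arginine/serine-rich domain. Both carried an alternative 3′ site event, and the events started from almost the same level. *RS2Z33* (chromosome 2, 15670147 to 15672700, reverse strand) started at 0.76 and reached 0.89, 0.91 and 0.92 on the warm days. *RS2Z32* (chromosome 3, 19834240 to 19837088, reverse strand) had 0.78 at 16 °C and 0.73 on each warm day. The former was higher by 0.13 to 0.16 and the latter lower by 0.05, so a gap of -0.02 (*RS2Z33* minus *RS2Z32*) became 0.16, 0.18 and 0.19. This difference between the genes carries no test. With the reference isoforms unknown, the gap and the differing signs do not show opposite use of corresponding sites.

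In both genes RefSeq has exactly 1 alternative 3′ site, in the longest intron (488 bases in *RS2Z32*, 624 in *RS2Z33*), and in both the upstream acceptor adds 218 bases. These lie at chr3:19835913-19836130 in *RS2Z32* and at chr2:15671601-15671818 in *RS2Z33*. None of them is annotated as coding, because transcripts with them have their coding sequence annotated from a later start, downstream of these bases. The longest proteins, of 284 and 290 amino acids, start upstream of this position. With the upstream acceptor the annotated *RS2Z32* protein has 243 amino acids instead of 284, and the *RS2Z33* proteins have 249 or 260, against 260 or 290 with the downstream one. The acceptors are printed because they are the only annotated candidates for the 2 events and correspond by position in the genes, with the AG in capitals. The table does not place the events, so the match is not established.
RS2Z32 upstream acceptor, chr3:19836121-19836150, reverse strand: cttgaatgatcttgttgaAGgtttctgggg
RS2Z33 upstream acceptor, chr2:15671809-15671838, reverse strand: cttgaatgatcttattgaAGgtctctggga
RS2Z32 downstream acceptor, chr3:19835903-19835932, reverse strand: tctggcaacaatttacgcAGagtacgagat
RS2Z33 downstream acceptor, chr2:15671591-15671620, reverse strand: gccaacaatttcttccgcAGagtgcgagat

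Position by position, 27 of 30 bases were identical between the genes at the upstream acceptor and 20 of 30 at the downstream one, with 9 of 10 in the exon. Both upstream sites had 8 T in the last 20 intron bases and both downstream sites 5. A second gene (AT2G08865) on the opposite strand covers all 218 bases of the *RS2Z33* alternative. The library kit keeps strand, but the sources used here do not say whether strand entered the PSI estimates, and the part of this gene in the *RS2Z33* value was not tested. *RS2Z32* is overlapped by AT3G53490 on the opposite strand, by 65 bases.

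Both SR-like genes had higher PSI in the warm groups. *SR45a* (chromosome 1, 2257384 to 2260187, reverse strand), whose transcripts are known to respond to heat and strong light, had a skipped exon with 0.12 at 16 °C and, in day order, 0.30, 0.29 and 0.34 at 25 °C. Inclusion was thus higher by 0.17 to 0.22. Expressed as odds (PSI divided by 1 minus PSI), and averaged on the log scale over the days, this was a 3.29-fold difference, close to the 3.27-fold of *SCL33* event a. *SR45* (chromosome 1, 5675495 to 5678873, reverse strand), which associates with the exon junction complex and binds U1-70K and U2AF35, had an alternative 3′ site at 0.09 and then 0.15, 0.13 and 0.14. Its differences of 0.04 to 0.06 were, with those of *RS2Z32*, the smallest of the set by the mean.

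The annotation of *SR45a* holds 1 exon that is skipped as a whole, with 96 bases at chr1:2258750-2258845. Of these, 30 are annotated as coding, with a stop codon as the last of them. The annotated protein has 129 amino acids in the transcript with this exon, where translation is also annotated from a later start, and 382 in the one without it. Its ends are printed because the exon ends the reading frame, and it is the only annotated candidate for the measured event.
SR45a exon start, chr1:2258836-2258865, reverse strand: tgcttgtttccactttcaAGtttctgtggc
SR45a exon end, chr1:2258730-2258759, reverse strand: gacatttaggGTtgtatgccctgcatttct

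For *SR45*, 2 alternative 3′ sites are annotated, which add 180 and 21 bases, both multiples of 3. The 180 bases hold a stop codon (383 amino acids, against up to 425 without them), whereas the 21 bases are coding throughout and leave the frame intact.

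**Figure D2:**
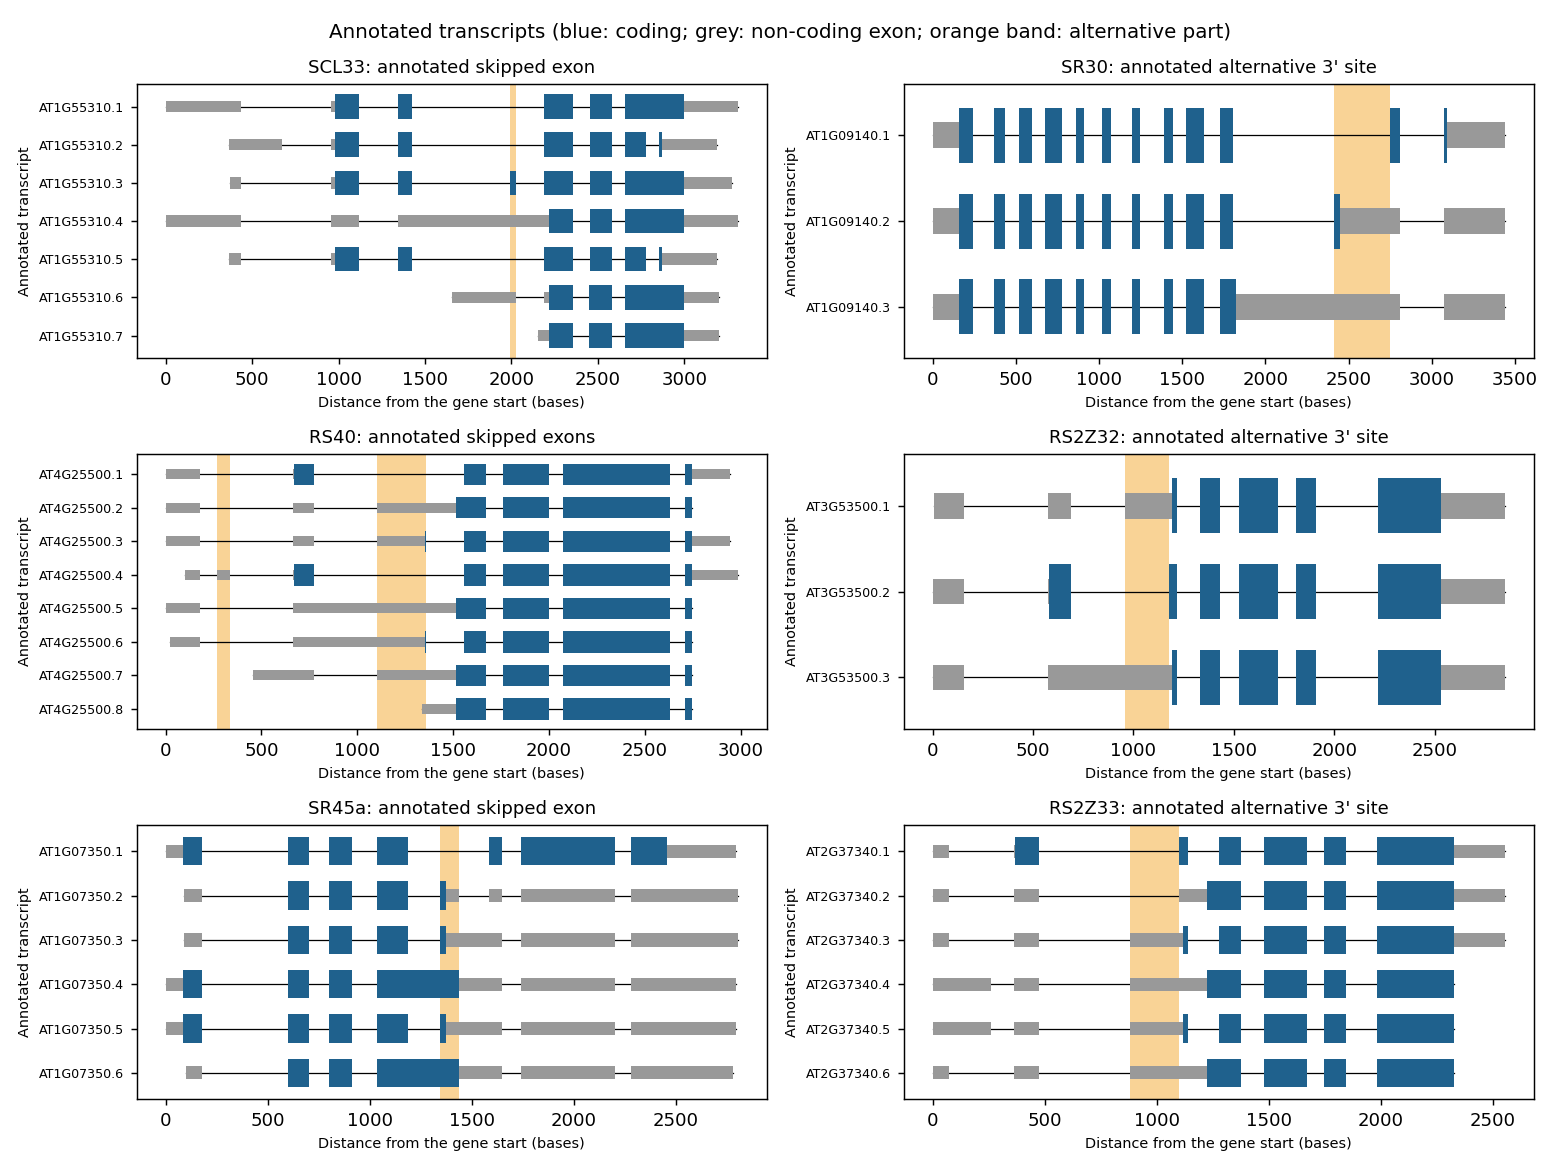
Annotated transcripts of 6 of the genes, drawn along the transcribed strand (horizontal axis, bases from the gene start); boxes are exons, tall blue parts are coding, and grey parts are not coding, and orange bands mark annotated alternatives of the type listed in the table. For *RS40* only skipped exons are marked. The bands of *RS2Z32* and *RS2Z33* are equally wide (218 bases). Those of *SR30* (338 bases) and *SR45a* (96 bases) hold a stop codon.

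By event type, the 4 skipped exon events had the largest shifts. Their mean differences ranged from 0.190 to 0.260 in size, with 3 higher (both of *SCL33*, and *SR45a*) and 1 lower (*RS40*). Their median size was 0.215, against 0.113 for the 65 skipped exon events of the whole table. For the 7 alternative 3′ sites the median was 0.127, with *RS2Z33*, *RS40* and *SR30* at 0.147, 0.140 and 0.137, *RS31* at 0.127, *SR34* at 0.067, and *RS2Z32* and *SR45* at 0.050. Over all 213 alternative 3′ sites it was 0.110. Both alternative 5′ sites came from *SCL30A* and had mean differences of 0.077 and 0.080, below the 0.115 of all 112 events of this type. On the odds scale the leading events were *SCL33* b (3.59-fold), *RS40* SE (3.40-fold lower), *SR45a*, *SCL33* a and *SR30* (3.15-fold).

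**Figure D3:**
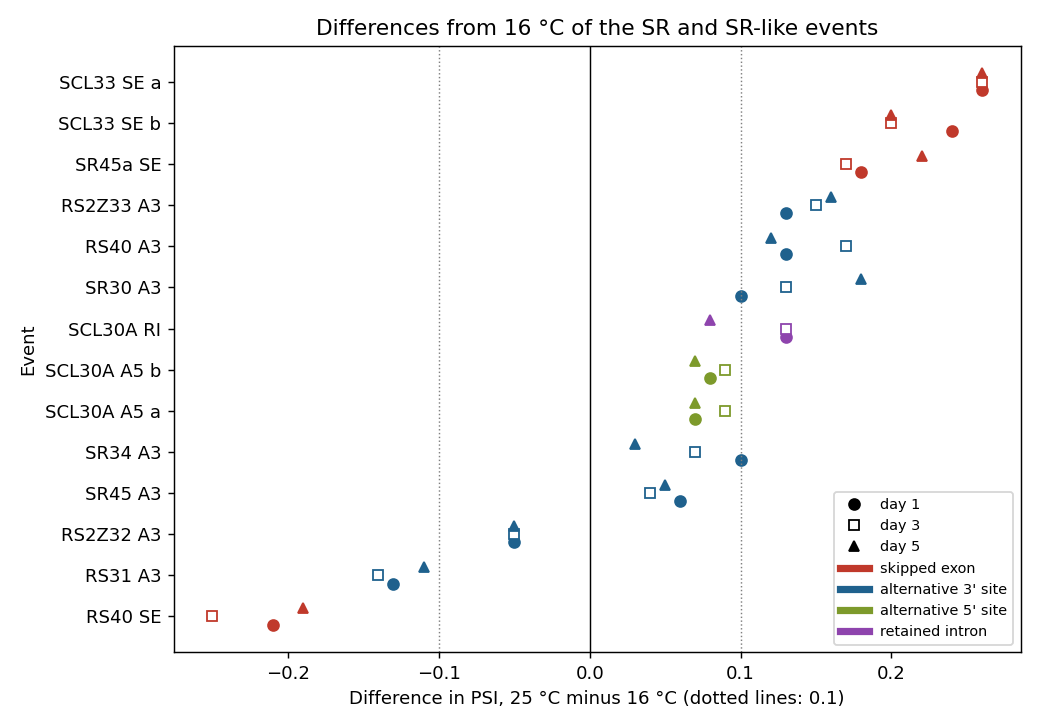
Difference in PSI from 16 °C (horizontal axis) of each event (vertical axis, ordered by mean) on days 1, 3 and 5 at 25 °C; colours are event types and dotted lines mark a difference of 0.1. The 2 *SCL33* skipped exon events lie at 0.20 to 0.26, the *RS40* exon lies at -0.19 to -0.25, and the day 5 point of *SR30* stands apart from its day 1 point.

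Between days 1 and 5 most events changed little. The *SCL33* a and *RS2Z32* values were identical on the 3 warm days, and the median range over these days was 0.04 for the member events and 0.05 for all events. Relative to 16 °C, 3 events lay further away on day 5 than on day 1 (*SR30* by 0.08, *SR45a* by 0.04 and *RS2Z33* by 0.03) and 8 lay nearer. Of the latter, *SR34* (0.07), *SCL30A* RI (0.05), *SCL33* b (0.04), *RS31* and *RS40* SE (both 0.02) exceeded the rounding error of 0.01. Among all listed events, 262 were further away and 317 nearer.

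The sign can be compared between events of like level at 16 °C, but the 2 are not independent, since the 16 °C value is also the one subtracted and a PSI near 0 or 1 can move far in 1 direction only. All 7 member events that started below 0.25 were higher at 25 °C, as were 74.6% of the 185 events of the table in this range. Of the 4 that started above 0.75, 3 were lower, as were 75.1% of 169 in the table; the exception was *RS2Z33*. Between these limits 3 of 3 member events were higher, and 143 of 284 in the table. The limits were set after the values had been seen.

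**Figure D4:**
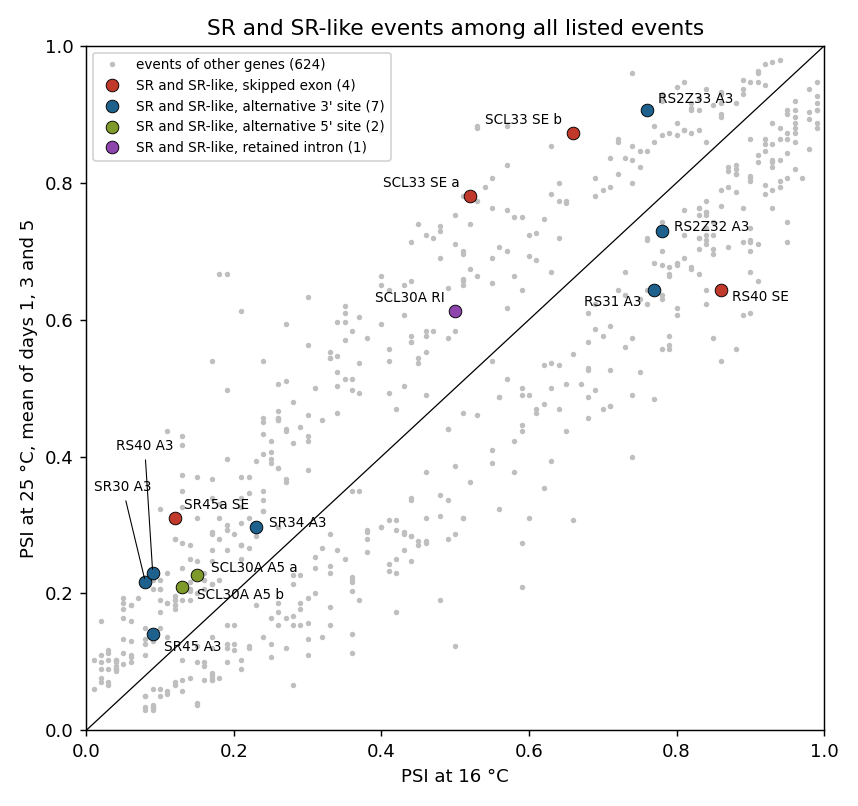
PSI at 16 °C (horizontal axis) and mean PSI over the 3 warm days (vertical axis) of the 638 listed events; large coloured points are the 14 SR and SR-like events by type, grey points the 624 events of other genes, and the line marks equal values. The 11 events above the line include all 7 that start below 0.25, and *RS40* SE, *RS31* A3 and *RS2Z32* A3 lie below it.

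A feature that played no part in the selection was the length of introns. The longest annotated intron of the 10 genes had a median of 745 bases (275 in *SR45* to 942 in *SR30*), against 400.5 bases in 478 other genes of the table, and 9 of the 10 genes exceeded that value. Of the 9 genes with a listed skipped exon or alternative 3′ site, 8 had an annotated alternative of that type, and in 7 of these (87.5%) at least 1 lay in the longest intron. Among other genes of the table this held for 66 of 152 (43.4%). The search left out alternative 3′ sites whose longer intron also skips a whole annotated exon, as in *RS40*. How many other genes this affects was not counted. The exceptions were *SR45a*, whose exon lies in a shorter intron, and *RS31*, with no annotated alternative. The genes had a median of 5.5 annotated transcripts (1 to 8), against 3 in the others. No test was made of these features.

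Of 20 SR and SR-like genes on the list of the family used here, the other 10 (*SR34a*, *SR34b*, *RSZ21*, *RSZ22*, *RSZ22a*, *SC35*, *SCL28*, *SCL30*, *RS31a* and *RS41*) had no listed event. Whether they were measured and unchanged or had too few reads is not known. Of 8 kinases that phosphorylate SR proteins, 1 was listed: intron retention in the LAMMER kinase gene *AFC1* (AT3G53570) stood at 0.31 at 16 °C and 0.52, 0.49 and 0.49 at 25 °C. The binding partners of SR proteins looked up were *U1-70K*, *U2AF35A*, *U2AF35B* and *CYP63*. Not looked up were *U2AF65A* and *U2AF65B*, which the authors report as differentially spliced. Of the 4 looked up, only *U1-70K* (AT3G50670), which encodes a U1 protein that contacts SR proteins, was listed. Its alternative 5′ site had 0.46 at 16 °C, 0.54 on day 1, and 0.47 and 0.46 on days 3 and 5, and so was back at the 16 °C level while most SR events were not.

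Among events of the same type in other genes, those most like the *SCL33* and *RS40* events over the 4 group values were searched for by Euclidean distance. An exon of the WD40 repeat gene AT1G78070 (0.57, 0.72, 0.74 and 0.82) was nearest to *SCL33* a, at a distance of 0.096, followed by one of AT5G18230, annotated as a NOT2/NOT3/NOT5 family regulator (0.124). The 2 nearest to *SCL33* b both came from AT1G62920 (0.136 and 0.137). For the *RS40* exon the nearest was that of the polypyrimidine tract-binding protein gene *PTB1* (AT3G01150), another splicing regulator, with 0.79, 0.68, 0.70 and 0.65 and a distance of 0.120, ahead of the kinase gene AT1G13350 (0.146). For the *RS40* alternative 3′ site these were the chaperone gene AT3G17830 (0.042) and AT4G30720 (0.052), out of 206 candidates. For the exons 61 candidates were searched.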

How the data were processed

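Polyadenylated RNA of 12 samples in 4 groups of 3 was sequenced with a strand-specific kit. The authors aligned reads to TAIR10 with TopHat2 (the submitters' notes say TopHat), assembled transcripts with Cufflinks and estimated PSI with MISO. The sources used here give no further versions. They required a minimum number of isoform-specific reads in several replicates of the compared conditions, and smaller differences within than between conditions. The deposited PSI values are a fraction from 0 to 1, rounded to 2 decimals, with 1 value per group. The methods describe PSI per sample and on merged replicates, the latter used for the authors' calls, but do not say how the deposited columns were made. Another column holds the authors' own comparisons (the days called for each event) and was not used.

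Differences from 16 °C were computed per day and as the mean of 3 days and counted from a minimum of 0.1 (Python 3.11.15, pandas 2.3.3). The counting was tested on simulated data. No test was run, since none can be made from 1 value per group. The genes, subfamilies, lists and minimum were chosen with earlier results of these data known. All events of the 10 genes, all listed events of the kinase and partner lists, and the 2 nearest events to each *SCL33* and *RS40* event are named.

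RefSeq (TAIR10.1) supplied transcripts and sequences. The gene ranges in the table equalled an annotated coding range for 10 of 10 genes, and 488 of the 511 genes had annotated mRNAs. Splice site windows hold 20 intron and 10 exon bases. Alternatives were other minimum differences, 1 event per gene, leaving out the SR-like genes, single days, log odds, levels of 0.1 to 0.9 and rounding.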

Additional observations from a re-analysis of the deposited data

How the results depend on the processing

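The signs of the 14 events were alike on each single day, but counts depended on the minimum difference. With 0.2 instead of 0.1, 2 events were higher and 1 lower on day 1, 2 and 1 on day 3, and 3 and 0 on day 5. With 0.05, 10 were higher on day 5 instead of 6. With 1 event per gene, 7 genes had higher and 3 lower mean PSI. With a margin of 0.01 for rounding, 5 events instead of 8 had come nearer to the 16 °C value by day 5. The 5 largest events by PSI and by log odds had 4 in common, and the median in log odds was 0.860 for member events and 0.721 for all. Of 42 single-day values of the member events, 21 were within 0.01 of the mean, 21 were not and 0 had the other sign. No paired analysis was possible because the table has 1 value per group, and for the same reason no replicate could be left out. Read depth beyond the authors' minimum is unknown, so it cannot be said which PSI values are the more precise.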

Other observations

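A measure that does not depend on the reference isoform was added after the values had been seen, namely the distance of PSI from 0.5, where both isoforms are equally abundant. In 10 of the 14 SR and SR-like events the warm values were on average nearer to 0.5 than the 16 °C value, against 369 of the 638 listed events (57.8%). The minor isoform thus gained share in *SR30*, *SR34*, *RS31*, *RS2Z32*, *SR45*, *SR45a*, both *RS40* events and both alternative 5′ sites of *SCL30A*. The other 4, both skipped exon events of *SCL33*, the retained intron of *SCL30A* and the alternative 3′ site of *RS2Z33*, went further from 0.5. Of the 7 alternative 3′ sites 6 came nearer, and 123 of 213 did in the whole table. Values near 0 or 1 can only move inwards by much, so the measure also reflects the starting level.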
